A study of Homo sapiens with 12 samples.

Results

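The genes described here are 9 members of the bone morphogenetic protein (BMP) response: ID1, ID2, ID3 and ID4, the inhibitory SMADs SMAD6 and SMAD7, the ligand BMP4, the pseudoreceptor BAMBI and the secreted antagonist GREM1. They were taken by symbol from a table of 53361 genes, and each symbol had a single row. The set was chosen by a measured value, the fall of ID1 after MG132 relative to control, which is among the largest of the table. All values of MG132 against control are therefore given as a description with no test.

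RNA was sequenced in 12 libraries of hTERT-RPE1, telomerase-immortalised cells of the human retinal pigment epithelium, with 3 libraries in each of 4 groups. Reversine, an inhibitor of the mitotic checkpoint kinase Mps1, was given at 0.5 µM for 24 h and washed out, and these cells were collected 48 h later. Bafilomycin A1 (BafA1), an inhibitor of the lysosomal proton pump, was given at 0.1 µM for 6 h. MG132, an inhibitor of the proteasome, was given at 1 µM for 24 h. Control cells were untreated, and the labels name neither a vehicle nor a matched time for them. All groups share 1 immortalised line grown in medium with serum. Whether replicate libraries were grown as separate cultures is not stated, and a p-value therefore covers the spread of these libraries, which may be technical.

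BMPs bind pairs of serine/threonine kinase receptors that phosphorylate SMAD1, SMAD5 and SMAD9, and these enter the nucleus with SMAD4. The ID genes are direct targets of this branch in many cell types. ID proteins carry a helix-loop-helix but no DNA-binding region, so they hold E proteins such as TCF3 off DNA. SMAD6, SMAD7 and BAMBI are induced by the same signalling and dampen it inside the cell or at the membrane, and gremlin 1 (GREM1) and noggin (NOG) bind the ligands outside it. In the embryonic eye of the chick, BMP signalling is known to promote pigment epithelial fate. ID proteins are short-lived and are themselves degraded by the proteasome, but only polyadenylated RNA was measured here.

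The 250 bases before the annotated start of ID1, ID3 and SMAD6 are shown because these genes had the lowest values, relative to control, in the reversine libraries among the 9. They come from RefSeq (GRCh38.p14), whose windows matched every member by symbol, and are written 5′ to 3′ on the gene's strand: ID1 chr20:31605039-31605288 on the plus strand, ID3 chr1:23559502-23559751 on the minus strand and SMAD6 chr15:66701986-66702235 on the plus strand. Capitals mark the palindromic SMAD motif GTCTAGAC.
ID1: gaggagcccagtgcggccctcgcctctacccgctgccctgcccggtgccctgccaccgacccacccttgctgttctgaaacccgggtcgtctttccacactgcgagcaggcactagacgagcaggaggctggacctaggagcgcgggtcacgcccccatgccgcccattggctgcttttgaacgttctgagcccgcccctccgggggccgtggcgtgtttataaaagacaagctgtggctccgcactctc
ID3: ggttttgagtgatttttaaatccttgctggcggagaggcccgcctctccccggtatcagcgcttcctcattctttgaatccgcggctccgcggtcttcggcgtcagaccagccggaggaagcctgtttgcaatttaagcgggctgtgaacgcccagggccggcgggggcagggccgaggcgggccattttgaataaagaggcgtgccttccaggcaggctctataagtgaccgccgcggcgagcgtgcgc
SMAD6: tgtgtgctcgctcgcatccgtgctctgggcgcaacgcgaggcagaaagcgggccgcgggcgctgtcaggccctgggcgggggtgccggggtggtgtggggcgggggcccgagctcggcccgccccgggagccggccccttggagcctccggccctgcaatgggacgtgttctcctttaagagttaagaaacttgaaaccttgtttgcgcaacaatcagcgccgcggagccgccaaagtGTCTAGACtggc
The motif begins 12 bases before the SMAD6 start and stands in 64 of all 35116 windows of this length (0.182%). A second motif, GGCGCC, is in none of these windows for ID1, ID3 and SMAD6, and 16.4% of all windows hold it. Both motifs read the same on either strand and do not overlap each other. A match of letters is a description and not a site of binding, and only these 250 bases were searched.

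Values are read as FPKM, which divides fragments by transcript length and by the mapped reads of the library, so levels of different genes can be compared per length. The depth of a library relative to the deepest one, estimated from the lowest values, was 0.70 to 0.87 in reversine, 0.57 to 0.73 in BafA1, 0.67 to 0.92 in MG132 and 0.78 to 1 in control libraries. MG132 2, MG132 3 and control 3 had 10150, 9689 and 9118 rows at exactly 0, against 889 to 4240 in the other libraries. Values fell with transcript GC content, relative to the mean of the 12 libraries, in reversine 1, BafA1 3, MG132 2 and MG132 3. The log2 slope per 10 percentage points of GC was -0.329, -0.087, -0.446 and -0.466 in that order, against 0.089 to 0.21 in the other 8. Of 11 pigment epithelium markers, 6 were at 2 FPKM or more in every library (PMEL, MITF, OTX2, SERPINF1, KRT8 and KRT18), while RPE65, RLBP1, BEST1 and TYR were under 2 FPKM in all 12. Of 10 markers of other cell types, CDH1, PTPRC, TUBB3, COL1A1 and PDGFRB were over that level in all 12, and EPCAM, CD3E and CDH5 were under it. CDH1 ranged from 2.41 to 9.66 FPKM and PTPRC from 2.83 to 13.23 FPKM. The value that a transcript has without reads was estimated for the 9 members only. A marker over 2 FPKM is therefore not shown to be expressed. In bulk RNA, fewer cells of a type and less RNA per cell cannot be told apart.

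Differences below are between group means of log2(FPKM + 1), which understates changes of genes with low values. They were tested with limma over 30712 rows that reached 1 FPKM in 3 or more libraries, and called at a Benjamini-Hochberg adjusted p under 0.05. The control libraries in the tests of reversine and of BafA1 also enter the MG132 contrast that chose ID1. Those tests are therefore not independent of that choice. Of the 9 members, 8 passed the filter on low values. ID4, the ID gene that did not, was at 0.04 to 0.07 FPKM in every library, which is 1.0 to 1.2 times the value a transcript of its length has without reads.

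ID1 and ID3 were the most abundant members in control cells, and both were lower in each of the 3 treated groups, with no overlap with control. ID1 had 46.6, 76.41 and 74.74 FPKM in reversine libraries, 133.63, 134.14 and 122.67 FPKM in BafA1 libraries, 9.59, 8.94 and 7.34 FPKM in MG132 libraries and 189.08, 171.76 and 209.72 FPKM in control libraries. The 4 groups stood fully apart, in the order MG132, reversine, BafA1 and control from low to high. ID1 averaged 65.9 ± 16.8 FPKM after reversine, 130.1 ± 6.48 after BafA1, 8.62 ± 1.16 after MG132 and 190.2 ± 19.0 in control (SD, n = 3 each). The MG132 mean was 4.53% of the control mean.

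ID3, the other abundant ID gene, had 55.2, 61.78 and 67.17 FPKM in reversine libraries, 102.07, 96.47 and 112.15 in BafA1 libraries, 59.25, 55.26 and 59.12 in MG132 libraries and 130.04, 136.73 and 136.39 FPKM in control libraries. Here the reversine and MG132 groups overlapped, at 61.4 ± 6.00 and 57.9 ± 2.27 FPKM (SD, n = 3 each). BafA1 lay between them and control, at 103.6 ± 7.95 against 134.4 ± 3.77 FPKM. ID2 was low throughout. It had 4.69, 3.08 and 1.73 FPKM after reversine, 3.08, 2.73 and 3.16 after BafA1, 1.28, 0.98 and 2.52 after MG132, and 2.08, 3.29 and 3.37 FPKM in control. Every treated group overlapped control for ID2. An antisense gene, ID2-AS1, overlaps ID2 and another antisense gene overlaps ID4, and no strand setting is stated for the counting, so reads of the partners may not be separated.

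**Figure D1:**
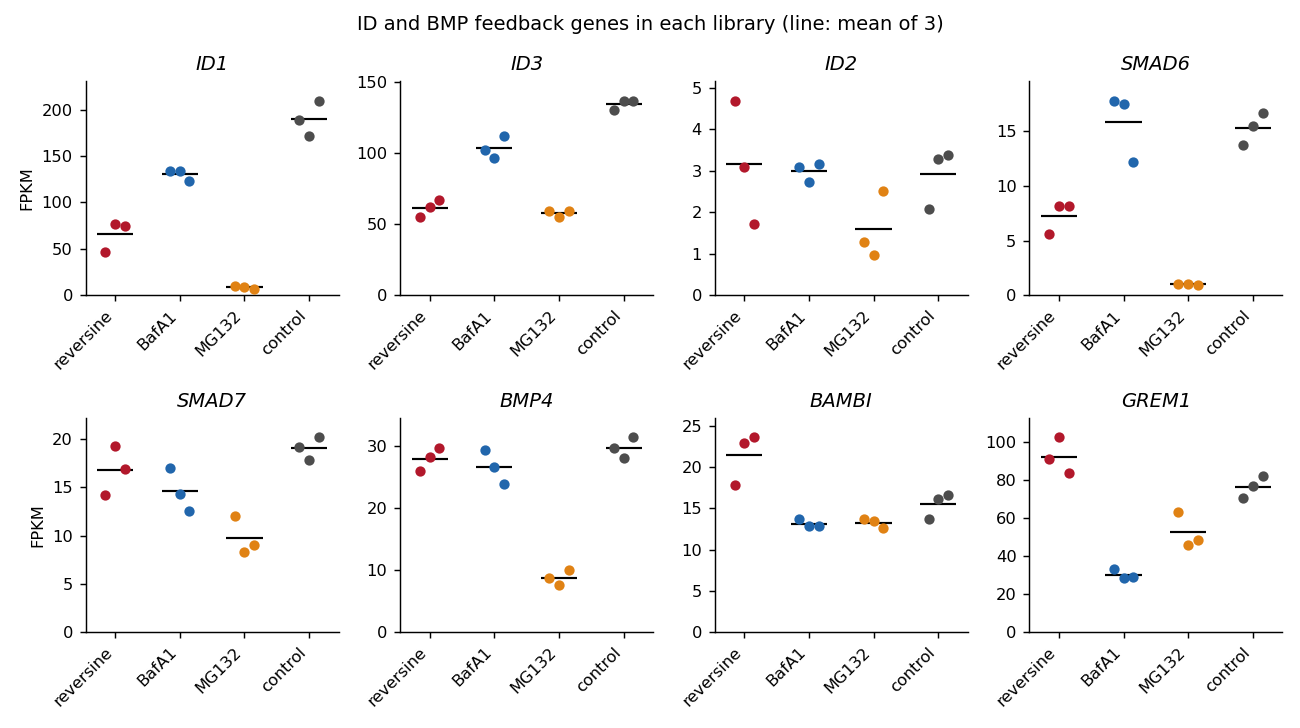
FPKM (linear axis from 0) of 8 of the 9 members in each library; each point is 1 library, and the line is the mean of the 3 libraries of its group. ID1 and SMAD6 are lowest after MG132, at 7.34 to 9.59 and 0.99 to 1.08 FPKM, whereas GREM1 is lowest after BafA1, at 28.22 to 33.03 FPKM.

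The inhibitory SMADs differed from each other in pattern. SMAD6, which acts mainly on the BMP branch, had 5.61, 8.12 and 8.14 FPKM in reversine libraries, 17.8, 17.48 and 12.18 in BafA1 libraries, 1.08, 1.01 and 0.99 in MG132 libraries and 13.7, 15.49 and 16.63 FPKM in control libraries. The reversine and MG132 libraries lay below all controls, and the BafA1 libraries overlapped them. SMAD7, which acts on both the BMP and the TGF-beta branch, had 14.2, 19.32 and 16.85 FPKM after reversine, 17, 14.35 and 12.51 after BafA1, 12.02, 8.27 and 9 after MG132 and 19.21, 17.82 and 20.19 FPKM in control. Its reversine libraries overlapped control, and its BafA1 and MG132 libraries lay below. A short gene on the same strand lies within a SMAD6 intron, and their reads may not be separated.

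BMP4, the one ligand among the members, had 25.95, 28.29 and 29.74 FPKM in reversine libraries, 29.32, 26.63 and 23.84 in BafA1 libraries, 8.8, 7.57 and 10.01 in MG132 libraries and 29.66, 28.08 and 31.46 FPKM in control libraries. Only the MG132 libraries stood apart from control, at 29.6% of its mean. BAMBI, a receptor-like protein that lacks the kinase, had 17.8, 22.89 and 23.62 FPKM in reversine libraries, 13.71, 12.88 and 12.85 in BafA1 libraries, 13.73, 13.41 and 12.67 in MG132 libraries and 13.67, 16.14 and 16.59 FPKM in control libraries. The reversine libraries were above all controls and the other treated groups overlapped them.

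GREM1, which sequesters BMP2 and BMP4, had 90.72, 102.35 and 83.33 FPKM in reversine libraries, 33.03, 28.22 and 28.9 in BafA1 libraries, 63.18, 45.79 and 48.28 in MG132 libraries and 70.32, 76.79 and 82.11 FPKM in control libraries. No 2 of these groups overlapped, with BafA1 lowest and reversine highest. A long noncoding gene on the opposite strand overlaps GREM1.

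After reversine, ID1 and ID3 fell relative to control, whose libraries also enter the MG132 contrast that chose ID1. Over all tested rows, 1.29% were called lower and 0.801% higher, and among the 8 tested members 2 were lower and 0 higher (3 lower and 1 higher at an unadjusted limma p under 0.05, which 6.7% of all rows passed as lower and 5.12% as higher). ID1 fell by 1.54 on the log2 scale (SE 0.193, limma adjusted p = 0.00392) and ID3 fell by 1.12 (SE 0.103, limma adjusted p = 0.000989), each lower in 3 of 3 libraries. For SMAD6 the difference was -0.99 (95% interval -1.49 to -0.48), with a limma adjusted p of 0.0669, so it was not called. SMAD6 was called with log2(FPKM + 0.1), with median-ratio scaling between libraries and when all rows of a symbol were summed (limma adjusted p = 0.0428, 0.0213 and 0.0493). Summing left its own single row unchanged. In the other 11 of 14 alternatives SMAD6 was not called (limma adjusted p up to 0.2515). BAMBI stood 0.44 above control (95% interval 0.08 to 0.81, limma adjusted p = 0.288) and GREM1 0.27 above (limma adjusted p = 0.480), and neither passed. Intervals of 95% are for 1 gene and carry no adjustment. The differences of ID2, SMAD7 and BMP4 were 0.05, -0.18 and -0.09. The median difference of the 8 members was -0.13, beside 0.09 over all tested rows. Reversine 1, with its falling GC trend, was the lowest of the 3 for ID1, ID3 and SMAD6, whose transcripts have 58.1%, 56.6% and 61.2% GC; without all 4 libraries of that trend both calls were kept. Among the markers, KRT18 had 598.68, 595 and 629.65 FPKM in reversine libraries and 427.16, 472.46 and 425.74 FPKM in control libraries. COL1A1 had 28.02, 46.58 and 47.76 FPKM in reversine libraries and 20.6, 20.91 and 22.47 FPKM in control libraries. BEST1 and SNAP25 also lay above all controls, MITF lay below them, and KRT8 and PDGFRB overlapped them. No marker was called in this comparison, and the part of the markers was not tested. Medians were 0.04 for the pigment epithelium markers and 0.07 for those of other cell types. In a fit of reversine and control alone neither ID gene was called (limma adjusted p = 0.0983 for ID1 and 0.0633 for ID3), so the calls rest on a spread estimated over all 4 groups.

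After BafA1, GREM1 was the only member called. It fell by 1.32 on the log2 scale (SE 0.149, limma adjusted p = 0.0101), to 30.05 ± 2.60 FPKM, against 76.4 ± 5.90 FPKM in control (SD, n = 3 each). Few genes were called in this comparison, 0.0619% of tested rows lower and 0.202% higher. Of the 8 tested members 1 was lower and 0 higher, and 3 were lower and 0 higher at an unadjusted limma p under 0.05, which 2.48% of all rows passed as lower and 4.64% as higher. ID1 and ID3 differed by -0.54 (95% interval -0.98 to -0.10, limma adjusted p = 0.478) and -0.38 (95% interval -0.61 to -0.14, limma adjusted p = 0.345), with no overlap between the groups. SMAD6 stood at 0.03, SMAD7 at -0.37, BMP4 at -0.16, BAMBI at -0.21 and ID2 at 0.04. The median over the members was -0.29, beside 0.14 over all rows; median-ratio scaling moved the median of all rows to -0.04. Of the markers of other cell types, EPCAM, CD3E, CDH5, SNAP25, COL1A1 and PDGFRB stood above control in the same libraries without overlap. EPCAM, CD3E and CDH5 were under 2 FPKM in all 12. The lowest values, used to estimate depth, were also higher in BafA1 libraries (0.1223, 0.1553 and 0.1245 FPKM times kb) than in control libraries (0.09788, 0.1142 and 0.08923). The part of depth in these 3 genes was not tested. The median of the markers of other cell types was 0.16, beside 0.14 over all rows, and 0 of their 9 tested genes were called. PDGFRB had 41.19, 39.24 and 36.3 FPKM in BafA1 libraries and 21.42, 18.96 and 20.09 FPKM in control libraries (limma adjusted p = 0.182). COL1A1 had 29.65, 33.15 and 30.02 FPKM in BafA1 libraries and 20.6, 20.91 and 22.47 FPKM in control libraries (limma adjusted p = 0.478). The part of these markers in the GREM1 difference was not tested. The GREM1 call was lost, with limma adjusted p of 0.0501 to 0.0759, without control 1, control 2, control 3, BafA1 2 or BafA1 3, at differences of -1.27 to -1.38.

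Reversine against BafA1 is the comparison whose group means share no library with the contrast behind the choice of the members. Its spread was still estimated over all 4 groups, the MG132 and control libraries among them. In a fit of reversine and BafA1 alone, the calls given next for GREM1, ID3 and ID1 were all lost. GREM1 was higher after reversine by 1.58 (SE 0.149, limma adjusted p = 0.00137), whereas ID3 was lower by a difference of -0.75 (SE 0.103, limma adjusted p = 0.00903) and ID1 by a difference of -1.0 (SE 0.193, limma adjusted p = 0.0449). Each held in 3 of 3 libraries with no overlap. Over all rows 0.785% were called lower and 0.443% higher, and of the 8 members 2 were lower and 1 higher. SMAD6 differed by -1.02 (limma adjusted p = 0.0837) and BAMBI by 0.66 (limma adjusted p = 0.133), and neither was called; the groups did not overlap for either gene. SMAD7, BMP4 and ID2 differed by 0.19, 0.07 and 0.00. The treatments also differ in duration and in the time after washout. The ID1 call was lost without reversine 2, reversine 3 or any 1 of the BafA1 libraries (limma adjusted p = 0.0728 to 0.182), and with median-ratio scaling the calls of ID1 and ID3 were both lost (limma adjusted p = 0.0638 and 0.0681), while that of BAMBI was gained (0.0472).

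**Figure D2:**
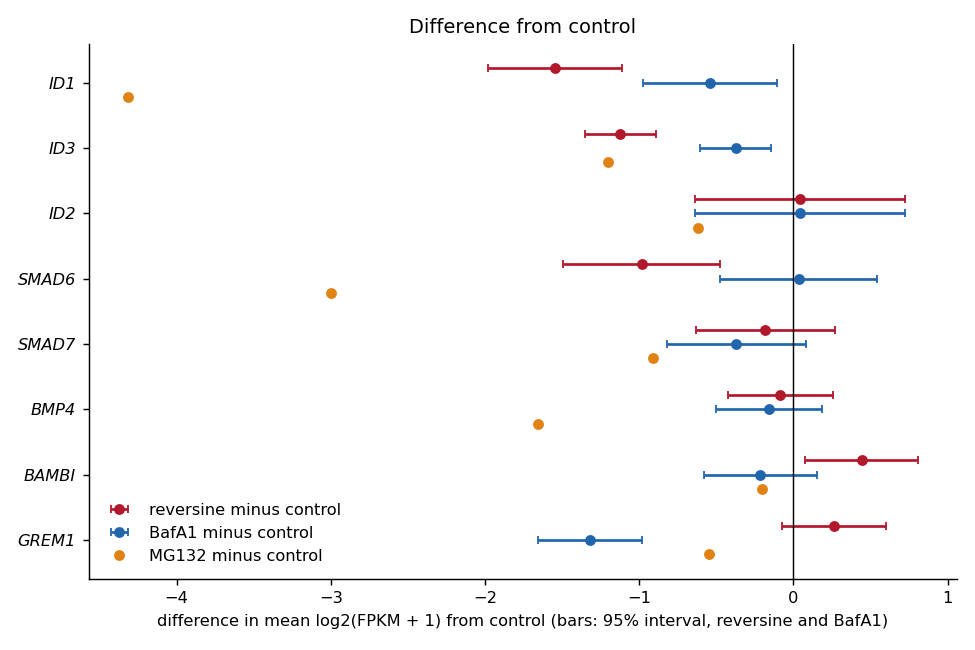
Difference from control in mean log2(FPKM + 1) for 8 members (x axis), with reversine, BafA1 and MG132 in separate colours; bars are 95% intervals from limma with no adjustment, drawn for reversine and BafA1 only. ID1 is below 0 in all 3 groups, at -1.54, -0.54 and -4.32, and GREM1 lies on both sides of it.

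MG132 gave the lowest ID1 and SMAD6 of the study. ID1 differed from control by -4.32 on the log2 scale, the 16th lowest difference of 30712 tested rows, and SMAD6 differed by -3.00, at 6.72% of the control mean. BMP4 followed at -1.66, ID3 at -1.20, SMAD7 at -0.91, ID2 at -0.62, GREM1 at -0.55 and BAMBI at -0.20. Under the rule used for calls, 7.67% of tested rows were lower and 7.14% higher, and 6 of the 8 members were lower and 0 higher; this contrast chose the set, and nothing is read from that count. The median of the members was -1.06, beside 0.04 over all rows. MG132 1 is the library of this group without a falling GC trend. With it against the 3 controls, ID1, SMAD6, BMP4 and ID3 differed by -4.17, -2.96, -1.65 and -1.17, and SMAD7 and GREM1 by -0.62 and -0.27. The summed pigment epithelium markers were at 479.6 to 735.1 FPKM in MG132 libraries and 1243 to 1405 FPKM in control libraries. The keratins KRT8 and KRT18 make up most of that sum and were the only 2 of its 9 tested genes past the rule for calls, at -1.29 and -1.14. The other 7 were not, PMEL at 0.04 and MITF at -0.52 among them, and the median of the list was 0.04. The summed markers of other cell types overlapped, at 171.7 to 672.2 FPKM in MG132 libraries and 118.9 to 779.5 FPKM in control libraries, a sum carried by the neuronal tubulin TUBB3 (631.08, 186.37 and 123.3 FPKM in MG132 libraries, 703.16, 724.73 and 60.23 FPKM in control libraries). Of the 9 tested genes of that list, 2 were lower past the rule for calls, COL1A1 and SNAP25, and 0 higher. COL1A1 had 10.54, 9.12 and 9.29 FPKM in MG132 libraries and 20.6, 20.91 and 22.47 FPKM in control libraries. SNAP25 had 1.39, 1.73 and 1.6 FPKM in MG132 libraries and 2.93, 3.88 and 3.76 FPKM in control libraries. PDGFRB also lay below all controls, whereas EPCAM, CD3E, PECAM1 and CDH5 lay above them. EPCAM, CD3E and CDH5 were under 2 FPKM in all 12 libraries. The median of the list was 0.14. The part of these markers in the members' differences was not tested. Set beside the other treatments, MG132 differed from reversine by -2.77 for ID1, -2.02 for SMAD6 and -0.08 for ID3, and from BafA1 by -3.77, -3.03 and -0.83.

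Ratios within a library are free of scaling between libraries, and they set related members beside each other. They were picked after the values were seen and were not tested. The ratio of ID1 to ID3 was 1.07 ± 0.20 in reversine, 1.26 ± 0.15 in BafA1, 0.149 ± 0.022 in MG132 and 1.42 ± 0.14 in control libraries (SD, n = 3 each). ID1 was thus the more abundant of this pair in control cells, and ID3 in MG132 cells. The ratio of SMAD6 to SMAD7 was 0.433 ± 0.045 in reversine, 1.08 ± 0.13 in BafA1, 0.107 ± 0.016 in MG132 and 0.802 ± 0.080 in control libraries, with no overlap between any of the groups. For the ligand over its antagonist, BMP4 to GREM1, it was 0.306 ± 0.044 in reversine, 0.885 ± 0.059 in BafA1, 0.171 ± 0.034 in MG132 and 0.390 ± 0.029 in control libraries, again with no overlap.

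**Figure D3:**
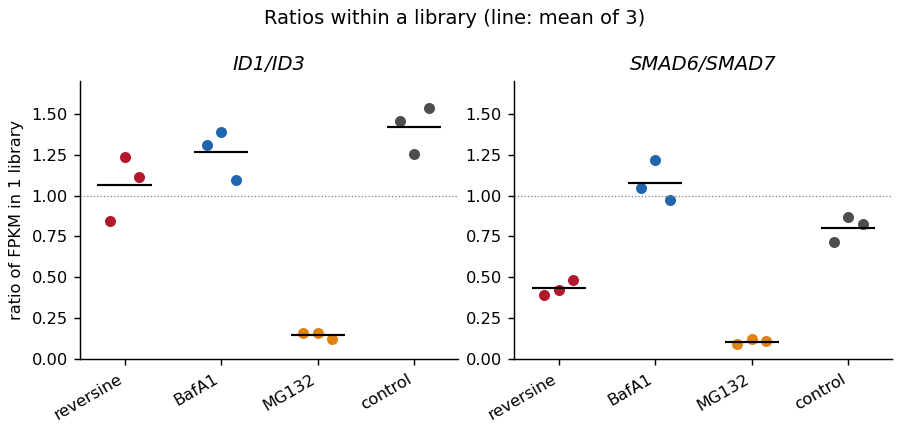
Ratio of the FPKM of 2 genes in the same library (y axis, from 0), for ID1 to ID3 and SMAD6 to SMAD7; points are libraries, lines are means of 3, and the dotted line marks equal levels. Both ratios are lowest in MG132 libraries, at means of 0.149 and 0.107.

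Among the other genes of the pathway, BMP2 was higher after reversine. Counts at an unadjusted p in the lists that follow stand beside the shares of all rows at that level, 6.7% lower and 5.12% higher after reversine and 2.48% lower and 4.64% higher after BafA1. Of 10 further BMP ligands, 2 passed the filter on low values, BMP2 and BMP7. BMP2, a ligand of the same subgroup as BMP4, had 4.61, 4.81 and 4.02 FPKM in reversine libraries, 0.43, 0.4 and 0.36 in BafA1 libraries, 1.65, 1.92 and 1.19 in MG132 libraries and 0.37, 0.5 and 0.8 FPKM in control libraries. BMP2 rose by 1.82 after reversine relative to control (SE 0.130, limma adjusted p = 0.000413) and stood 1.97 above BafA1 (limma adjusted p = 0.000296), in 3 of 3 libraries. BMP7 had the highest mean of that list, carried by MG132 2 and MG132 3 at 46.5 and 16.38 FPKM, against 2.22 to 5.85 FPKM in the other 10 libraries. MG132 1 was at 3.2 FPKM, and control 3 was the highest of those 10. MG132 2, MG132 3 and control 3 are the libraries with the most rows at exactly 0, and the part of this in the BMP7 values was not tested.

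Of 11 receptors and co-receptors, 10 were tested and 0 were called in a tested comparison (1 lower and 1 higher after reversine, and 1 lower after BafA1, at an unadjusted limma p under 0.05), with median differences of 0.05 after reversine, 0.19 after BafA1 and 0.19 after MG132. RGMB, a BMP co-receptor and the most abundant of them, had 53.55, 82.42 and 72.49 FPKM in reversine libraries, 42.17, 43.73 and 31.31 in BafA1 libraries, 71.53, 48.4 and 46.35 in MG132 libraries and 69.52, 57.75 and 77.05 FPKM in control libraries. The BafA1 libraries lay below all controls, at a difference of -0.79 (limma adjusted p = 0.401, not called), and RGMB is the 1 receptor lower after BafA1 at an unadjusted p under 0.05. All 4 transducers were tested and 0 were called in a tested comparison (1 lower after reversine, SMAD4, and 0 after BafA1 at an unadjusted limma p under 0.05). Their medians were -0.30, -0.05 and -0.29 after reversine, BafA1 and MG132. SMAD4, the common partner, differed by -0.67 after reversine (limma adjusted p = 0.174) and by -0.73 after MG132. After MG132 it was the 1 transducer past the rule for calls, which 7.67% of tested rows passed as lower.

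Of 14 secreted antagonists besides GREM1, 11 were tested and 0 were called after reversine or BafA1 (1 lower and 1 higher after reversine, and 3 lower after BafA1, at an unadjusted limma p under 0.05). Follistatin (FST), which binds activins and some BMPs, had 29.04, 41.12 and 39.97 FPKM in reversine libraries, 32.16, 31.83 and 27.95 in BafA1 libraries, 9.85, 10.4 and 9.73 in MG132 libraries and 50.35, 48.67 and 43.61 FPKM in control libraries. The MG132 libraries lay lowest, at a difference of -2.14 from control. Noggin had 0.08, 0.06 and 0.2 FPKM in MG132 libraries and 2.28, 1.58 and 1.78 FPKM in control libraries. Over the tested antagonists the median difference from control stood at -0.11 after reversine, at -0.18 after BafA1 and at -0.98 after MG132.

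All 7 intracellular SMAD inhibitors were tested, with 1 called higher after reversine and 0 after BafA1. At an unadjusted limma p under 0.05, 3 were higher after reversine and 0 after BafA1. The median difference after reversine was 0.49, beside 0.09 over all tested rows. SMURF1, SKIL and TOB1 lay above all controls after reversine but were not called. SMURF2, a ubiquitin ligase that targets SMADs and receptors, was at 81.35, 71.36 and 66.87 FPKM in reversine libraries and 46.52, 49.29 and 43.77 FPKM in control libraries, a difference of 0.64 (SE 0.126, limma adjusted p = 0.0349). That call was lost in 11 of 14 alternatives (limma adjusted p up to 0.215). Among them were leaving out any 1 of these 6 libraries, median-ratio scaling, and the GC and length correction. Reversine 1, with its falling GC trend, was the highest of the reversine libraries for SMURF2, SMURF1 and SKIL and the lowest for TOB1. Their transcripts have 41.3%, 52.56%, 39.65% and 48.24% GC in that order, and the part of this trend was not tested. Other targets of the branch were tested for 6 of 10 genes, with 0 called after reversine or BafA1 (2 lower and 1 higher, and 0 lower and 1 higher, at an unadjusted limma p under 0.05). ATOH8, a helix-loop-helix factor induced by BMP in several cell types, had 5.12, 8.06 and 6.59 FPKM in reversine libraries, 14.05, 11.53 and 13.36 in BafA1 libraries, 2.39, 1.11 and 1.13 in MG132 libraries and 14.96, 16.01 and 14.8 FPKM in control libraries. Its difference after reversine was -1.12 (limma adjusted p = 0.0615), not called, and after MG132 it was -2.71. ATOH8 was called after reversine with median-ratio scaling, with the GC and length correction and with summed rows of a symbol (limma adjusted p = 0.0384, 0.0157 and 0.0471). In the other 11 of 14 alternatives ATOH8 was not called after reversine (limma adjusted p up to 0.2147). MSX1, a homeobox target, differed from control by 0.91 after MG132, with 8.3, 7.4 and 8.88 FPKM in MG132 libraries and 4.19, 3.85 and 3.66 FPKM in control libraries.

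Among the 3 E proteins that ID proteins bind, 0 were called in a tested comparison (1 lower after reversine, TCF3, and 0 after BafA1 at an unadjusted limma p under 0.05). TCF3 was the most abundant, at 32.17, 62.52 and 59.04 FPKM in reversine libraries, 95.34, 90.01 and 64.88 in BafA1 libraries, 49.21, 25.01 and 22.78 in MG132 libraries and 126.14, 109.63 and 128.42 FPKM in control libraries. All treated libraries lay below all controls, at differences of -1.28 after reversine (limma adjusted p = 0.102), -0.55 after BafA1 (limma adjusted p = 0.690) and -1.96 after MG132. The libraries with a falling GC trend were the lowest of their groups for this gene; without them the MG132 difference was -1.28, and that of reversine was -0.98 and passed (limma adjusted p = 0.0248). With the GC and length correction TCF3 was likewise called after reversine, at -1.10 (limma adjusted p = 0.00156). In the other 12 of 14 alternatives TCF3 was not called after reversine (limma adjusted p up to 0.3334).

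**Figure D4:**
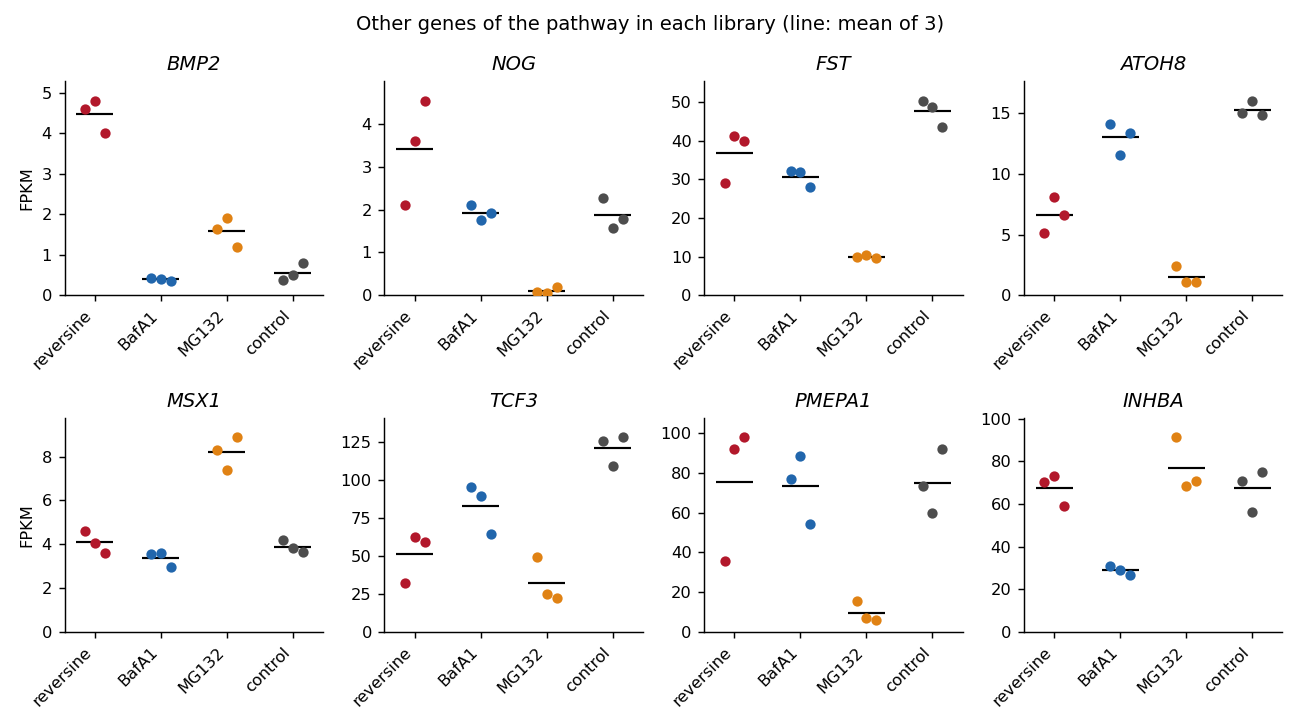
FPKM (linear axis from 0) of 8 other genes of the pathway in each library, with the mean of each group as a line. BMP2 is highest in the reversine libraries, at 4.02 to 4.81 FPKM, and INHBA is lowest in the BafA1 libraries, at 26.63 to 31.02 FPKM.

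Values of the related TGF-beta branch are given for INHBA and PMEPA1. INHBA had 70.35, 73.02 and 59.17 FPKM in reversine libraries, 31.02, 29.22 and 26.63 in BafA1 libraries, 91.35, 68.31 and 70.62 in MG132 libraries and 71.05, 56.09 and 74.84 FPKM in control libraries. The BafA1 libraries lay below all others. INHBA, a subunit of activin, fell by 1.18 after BafA1 (SE 0.163, limma adjusted p = 0.0220), a call lost without control 1, without control 3 or without any 1 of the BafA1 libraries (limma adjusted p up to 0.169 over all alternatives). In reversine against BafA1 INHBA differed by 1.19 (limma adjusted p = 0.00881), lost without the 4 libraries of falling GC trend and in the fit of 2 groups. PMEPA1, an inhibitor of TGF-beta signalling, had 15.81, 6.92 and 6.32 FPKM in MG132 libraries and 73.42, 59.86 and 91.87 FPKM in control libraries, a difference of -2.92. Of the markers of cell types, 1 was called in a tested comparison, PDGFRB, a mesenchymal receptor, which had 13.05, 24.1 and 19.24 FPKM in reversine libraries beside the BafA1 values above and differed by -1.05 in reversine against BafA1 (limma adjusted p = 0.0443), a call lost without reversine 3 or any 1 of the BafA1 libraries (limma adjusted p up to 0.363 over all alternatives).

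The genes whose levels followed ID1 most closely were IMPDH2, CARD10, PLXNA4, CHST14 and PRADC1, with Pearson r of 0.997 to 0.993 over the 12 libraries on the log2 scale, among tested rows with a mean of at least 5 FPKM. The 12 points form 4 groups that share treatment, so these values describe an order of group means and carry no p. IMPDH2, an enzyme of guanine nucleotide synthesis, averaged 137.9 ± 29.7 FPKM after reversine, 194.7 ± 0.107 after BafA1, 52.6 ± 4.31 after MG132 and 229.1 ± 14.9 in control (SD, n = 3 each). Among the members, SMAD6 lay closest to ID1 (r = 0.988, n = 12), then BMP4 (0.937), SMAD7 (0.852), ID3 (0.826) and ID2 (0.566). BAMBI and GREM1, at 0.215 and 0.032 with ID1, were nearer to each other (0.758).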

How the data were processed

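Messenger RNA of 12 hTERT-RPE1 libraries was sequenced as 50 nt reads after oligo(dT) selection, per the labels' protocols. Reads were processed with Bowtie 1.0.0 and RSEM 1.2.6 on hg19 (GRCh37), per the submitters' processing notes; their order and settings are not given in the sources used here. The header of the deposited table names no unit. Its values were taken as FPKM made by the authors, because column totals differ from 962891 to 2057717 and the lowest values scale with transcript length. Without read counts no counting interval can be given. Relative depth came from the floor, the lowest 5% of FPKM times length over 2818 rows.

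The members and all gene lists were chosen with earlier results of these data known. Samples were grouped by the labelled treatment, and replicate numbers follow the order of the records and pair nothing. From the FPKM, limma 3.58.1 in R 4.3.3 (trend method) was run on log2(FPKM + 1) in 1 fit of the 4 groups over 30712 rows, with 8 residual and 1.26 prior degrees of freedom and Benjamini-Hochberg adjustment; the fit was tested on simulated data. No scaling was added. All members were named. From each list the gene with the highest mean, up to 4 called in a tested comparison by adjusted p and, for MG132, up to 3 past the same rule by size could be named; not all are described, and a result of the TGF-beta list is not reported here. GC content and length came from GENCODE v29 by identifier and were known for 82.5% of tested rows. Alternatives were another pseudocount, other filters, median-ratio scaling, a correction for GC and length, leaving out libraries with a falling GC trend or single libraries, fits of 2 groups, and summed rows of a symbol. The promoter windows use GRCh38.p14 and were read only as sequence, apart from the coordinates of the table.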

Additional observations from a re-analysis of the deposited data

How the results depend on the processing

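Over the alternatives, ID1 kept its difference of reversine from control between -1.67 and -1.31 and ID3 between -1.22 and -1.03, and both calls were kept in all but the fit of the 2 groups alone. GREM1 in reversine against BafA1 stayed between 1.51 and 1.73 and lost its call in that fit alone (limma adjusted p = 0.0907). In fits of 2 groups the number of members called was 0 after reversine, 0 after BafA1 and 0 in reversine against BafA1, where the spread is estimated from fewer samples. With the 4 libraries of falling GC trend left out, the number was 0 after BafA1 and 1 in reversine against BafA1. Leaving out single libraries gave 2 to 2 members after reversine, 0 to 1 after BafA1, 2 to 3 in reversine against BafA1 and 4 to 6 past the same rule after MG132. In MG132 against control, the GC and length correction turned BAMBI to 0.016, PDGFRB to 0.005 and SMURF2 to -0.143, and median-ratio scaling turned SMURF2 to -0.126. INHBA turned to -0.116 under that scaling. None of these 4 genes was past the rule before or after, and the cause was not tested. Another 7 uncalled differences, each within 0.134 of 0, changed sign under some alternative. No paired analysis was possible because the labels carry no replicate numbers. Low levels limit ID4, at the floor, and ID2 and BMP2, under 5 FPKM in every library. Without counts, the depth behind each value is unknown.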
